A study of Mus musculus with 26 samples.

Results

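Angiotensin II (AngII), a peptide that narrows arteries and raises blood pressure, was infused into mice, and its effect on RNA was compared between a small and a large artery. The vessel bed difference described here is an interaction, the mesenteric effect of AngII (AngII minus sham) minus the aortic effect of AngII (AngII minus sham), on the log2 scale. It was computed from 16 of the 26 libraries of the series, all from male mice with loxP-flanked (flox/flox) Sphk1 alleles and no Cre, on a C57BL6J background, so every group carried the flox/flox alleles and none carried the deletion. There were 4 libraries each of mesenteric arteries after AngII, mesenteric arteries after sham, aorta after AngII and aorta after sham. AngII was given at 490 ng/kg/min for 14 days from a pump under the skin, begun at 12 to 14 weeks of age. A gene belongs to the description when it was tested in these 16 libraries among the 55414 gene identifiers that the count tables of both tissues share. Of these, 17687 passed the filter on low counts and were tested.

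The aorta is an elastic artery whose wall is built of layers of smooth muscle and elastic sheets, and it takes up the pulse of each heartbeat. Mesenteric arteries are small muscular vessels of the gut that set resistance to flow. AngII acts mainly through its type 1 receptor on smooth muscle, where it triggers contraction through calcium and, over days, growth of the wall and deposition of matrix.

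The libraries held 17.54 to 28.53 M counts in the mesenteric arteries and 26.18 to 32.25 M in the aorta. Smooth muscle markers were abundant in every library, with a summed level over 12 genes of 34000 to 48500 and 36600 to 44700 CPM (counts per M counts of the library, normalised) in AngII and sham mesenteric arteries, and of 22900 to 43500 and 39500 to 48300 CPM in AngII and sham aortas. Endothelial markers (12 genes) summed to 3170 to 4390 CPM in the mesenteric libraries and to 781 to 1220 CPM in the aortic ones. Some mesenteric libraries stood apart. AngII replicate 1 had 12.02% of its records unaligned and a lymphocyte marker sum of 462 CPM, against 31.2 to 58.2 CPM in the other 3 AngII and 50.1 to 158 CPM in the sham mesenteric libraries. Digestive enzyme and gut markers summed to 78300 CPM in mesenteric AngII replicate 4 and to 32800, 12000 and 10100 CPM in mesenteric sham replicates 1, 2 and 4, against 42.1 to 454 CPM in the other 4 mesenteric and 18.5 to 24.7 CPM in all aortic libraries. Fibroblast markers (12 genes) summed to 15100, 9970, 10700 and 6760 CPM in AngII aortas 1 to 4, against 6920 to 7240 CPM in sham aortas. In tissue pieces of this kind a different share of a cell type and a different RNA level per cell cannot be told apart.

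The AngII effect differed between the vessel beds for 509 genes, 2.88% of those tested. A gene is called when its edgeR quasi-likelihood p, adjusted by the Benjamini-Hochberg method over all genes tested, is below 0.05. The effect was lower in the mesenteric arteries for 312 genes (1.76%) and higher for 197 (1.11%), and 270 of the 509 differed by at least 2-fold. An exact two-sided permutation test of each gene on its own, with labels permuted within each tissue, gave a p below 0.05 for 443 of them. The genes were selected by the interaction in these same libraries, so this share is a description and not separate support. The null of that permutation is no AngII effect in either vessel, rather than equal effects. With library size as the only scaling, 198 genes were lower and 217 higher. The labels do not say whether libraries came from separate animals, so p-values measure the spread between these libraries, which may be technical. The counts moved with single libraries. Without mesenteric AngII replicates 1 and 4 together, 118 genes were lower and 82 higher, and without aortic AngII replicate 4, 522 were lower and 390 higher. Each tissue was also fitted alone, with 8 libraries. A difference in the number of calls between these fits is not itself a tested difference. In the mesenteric fit 78 genes were called (0.467% of 16706 tested), of which 72 rose (0.431%) and 6 fell (0.0359%). In the aortic fit 3065 were called (18.9% of 16221 tested), of which 1784 rose (11%) and 1281 fell (7.9%). These shares over all genes are the ones to set beside the list counts given below.

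Most genes with a difference were called in the aorta and not in the mesenteric arteries. That class held 465 of the 509 genes, 287 that rose and 178 that fell in the aorta. A missed call is not an absent effect, so the mesenteric interval was also read. For 427 of the 465 the whole 95% interval of the mesenteric effect stayed inside a 2-fold rise or fall, which held for 79.6% of all genes in that fit. For 245 the mesenteric estimate had the opposite sign. A smaller mesenteric effect fits inside that interval. The unadjusted edgeR p of the mesenteric effect was below 0.05 for 105 of the 465, and 45 of these 105 had the opposite sign. The share of such a p over all genes was not counted. The 465 genes were selected by the interaction: of all 2967 aortic calls with a mesenteric value, 2296 had a mesenteric estimate of the same sign. Of the other genes, 9 were called in both vessels in the same direction, 1 in both in opposite directions, 1 in the mesenteric arteries alone, 17 in neither, and 16 were not tested in one of the tissue fits. The median standard error over genes was 0.133 for the mesenteric and 0.142 for the aortic effect, while the common dispersion, edgeR's measure of spread between replicates over all genes, was 0.0761 in the mesenteric arteries and 0.0343 in the aorta.

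**Figure D1:**
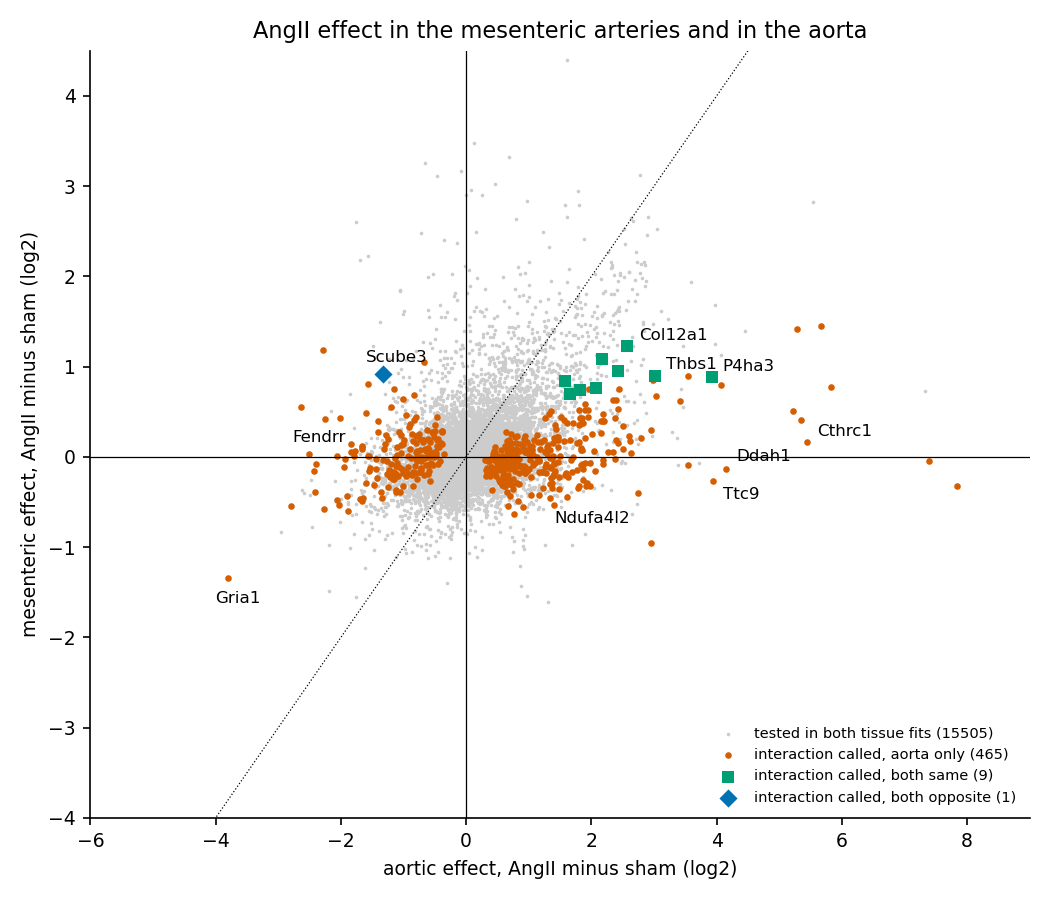
Each point is a gene tested in both tissue fits, with the aortic effect of AngII on the x axis and the mesenteric effect on the y axis, both AngII minus sham in log2 units, and the dotted line marks equal effects. Colours mark genes of 3 classes called in the interaction, with Scube3 alone in the class of opposite calls. Most of them (465) are aorta only, a class whose mesenteric effects were not called, which does not place them at 0.

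Scube3 was the 1 gene called in both vessels in opposite directions. It encodes a secreted and cell surface protein with CUB and EGF-like domains. Its level was 295, 195, 272 and 220 CPM in AngII mesenteric arteries, against 108, 150, 128 and 133 CPM in sham mesenteric arteries. In the aorta it was 148, 282, 255 and 380 CPM after AngII, against 658, 645, 722 and 640 CPM after sham. All AngII libraries were above all sham libraries in the mesenteric arteries and below them in the aorta. Scube3 rose by 0.92 ± 0.15 on the log2 scale in the mesenteric arteries (± SE; edgeR adjusted p = 0.0361) and fell by 1.33 ± 0.23 in the aorta (edgeR adjusted p = 0.00363). The interaction was 2.25 ± 0.30 (edgeR adjusted p = 0.00168; exact two-sided permutation p = 0.000408, the smallest that the 4900 regroupings can give). That permutation p follows from the lack of overlap in opposite directions and is not separate support. The interaction and the aortic fall were called in all 29 and all 16 alternatives run, whereas the mesenteric rise was called in 6 of 17, with an adjusted p up to 0.227.

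Opposite directions were also read from the libraries themselves. In 27 of the 509 called genes the AngII and sham libraries did not overlap in either vessel and moved in opposite directions, which held for 30 of all 17687 genes tested (0.17%). In a single vessel, libraries without overlap in either direction occurred in 9.03% of genes in the mesenteric arteries and 22.9% in the aorta. If the vessels moved independently at these rates, a share above 0.17% would be reached. The 27 genes are thus a description, and chance was not excluded for them. In 13 of the 27 the AngII libraries were the higher ones in the mesenteric arteries and the lower ones in the aorta. Sel1l3, a gene of unclear function, stood at 29.1, 35.8, 32.4 and 29.5 CPM in AngII and 22.4, 28.4, 19.9 and 22.2 CPM in sham mesenteric arteries, and at 24.6, 26.9, 22.3 and 23.3 CPM in AngII and 45.1, 45.0, 37.9 and 40.1 CPM in sham aortas. Its mesenteric effect was 0.44 ± 0.12 and was not called (edgeR adjusted p = 0.18), it fell by 0.80 ± 0.09 in the aorta (edgeR adjusted p = 0.000466), and the interaction was 1.24 ± 0.15 (edgeR adjusted p = 0.00103). Casz1, a zinc finger transcription factor of heart and vessel development, averaged 31.4 ± 2.21 CPM in AngII and 24.8 ± 3.03 CPM in sham mesenteric arteries, and 5.67 ± 1.47 CPM in AngII and 10.6 ± 0.991 CPM in sham aortas (SD, n = 4 each). Its interaction was 1.25 ± 0.20 (edgeR adjusted p = 0.0043), with a mesenteric effect of 0.34 and an aortic effect of -0.91. The same pattern held for Ppm1k, the phosphatase that activates branched-chain amino acid breakdown (interaction 0.79), Xpr1, a phosphate exporter (0.78), Lnpep, the aminopeptidase that binds angiotensin IV (0.67), Ppp1r3b, a glycogen-targeting phosphatase subunit (1.24), and P2rx5, an ATP-gated channel (0.75). It also held for Rnf144b, Mipol1, Smim6 and the unnamed genes Gm48713 and Gm35019.

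In the other 14 genes the AngII libraries were the lower ones in the mesenteric arteries and the higher ones in the aorta. Ndufa4l2, a mitochondrial protein of the hypoxia response, stood at 15.3, 11.6, 14.0 and 13.8 CPM in AngII and 16.8, 19.8, 19.5 and 18.4 CPM in sham mesenteric arteries. In the aorta it stood at 23.9, 17.6, 29.4 and 13.9 CPM after AngII and 8.02, 10.8, 6.95 and 7.6 CPM after sham. Its mesenteric effect of -0.46 ± 0.10 was not called (edgeR adjusted p = 0.108), it rose by 1.34 ± 0.23 in the aorta (edgeR adjusted p = 0.00385), and the interaction was -1.80 ± 0.27 (edgeR adjusted p = 0.00285). Bcl6b, a transcriptional repressor of endothelial cells, averaged 23.0 ± 2.50 CPM in AngII and 35.4 ± 4.65 CPM in sham mesenteric arteries, and 7.70 ± 1.92 CPM in AngII and 5.22 ± 0.668 CPM in sham aortas (SD, n = 4 each). Neither tissue effect was called for Bcl6b (-0.63 with an edgeR adjusted p of 0.0554 in the mesenteric arteries, 0.55 with 0.0654 in the aorta), but the interaction of -1.18 ± 0.22 was (edgeR adjusted p = 0.00884). Agpat4, an acyltransferase of phospholipid synthesis, had an interaction of -0.82 ± 0.12 (edgeR adjusted p = 0.00217), and Slc44a1, a choline transporter, one of -0.65 ± 0.12 (edgeR adjusted p = 0.00806). The remaining members were Zfp57, Sept11, Col28a1, Traf1, Homer3, Ctsf, Tvp23a, Plscr3, Ints11 and Scara3, with interactions between -1.63 and -0.47. For 26 of the 27 genes at least one tissue effect was not called, so their opposite direction rests on the order of the libraries. The 27 were selected by that order, so it is not separate support. A called interaction does not show opposite signs, since it also arises when a single vessel changes.

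**Figure D2:**
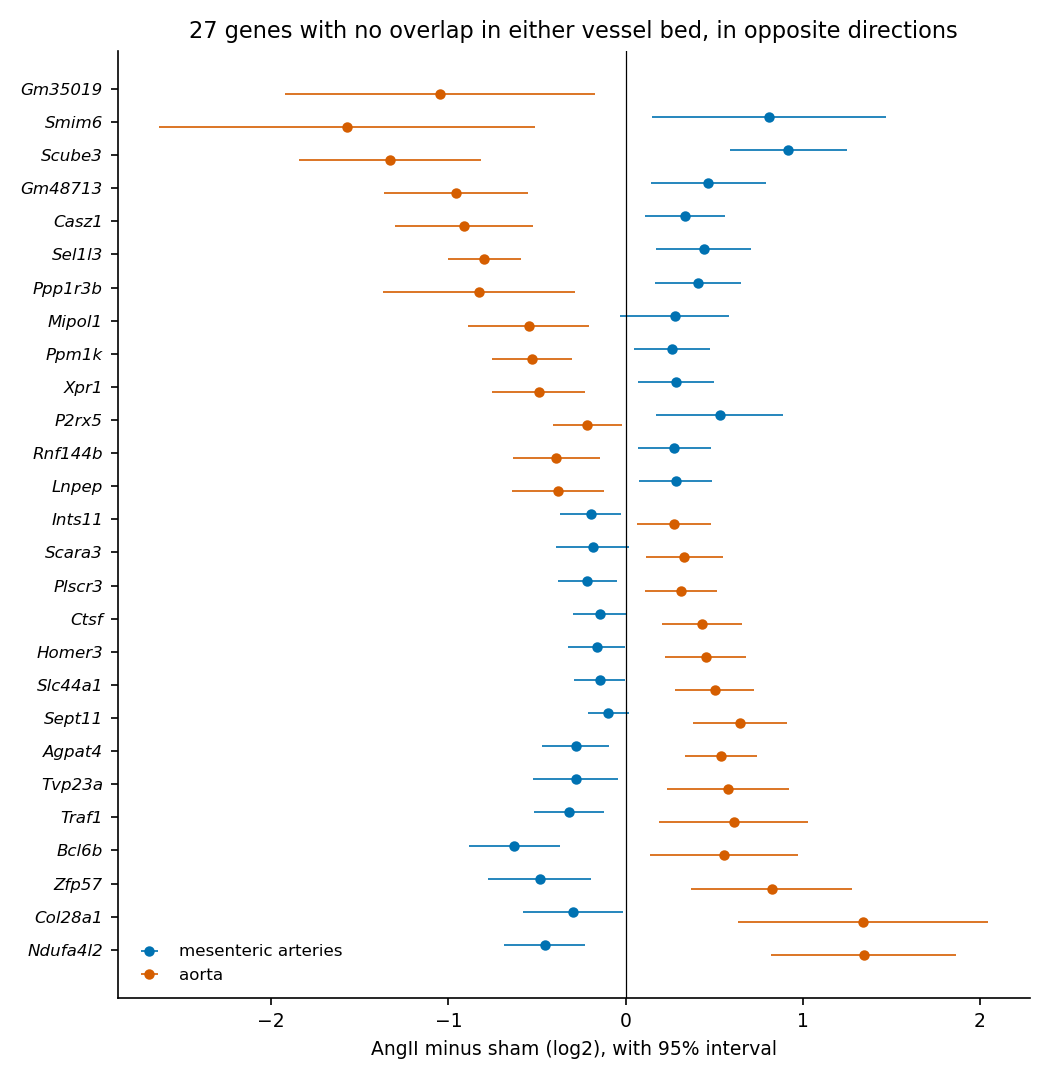
The 27 genes whose AngII and sham libraries did not overlap in either vessel and moved in opposite directions run down the page, with the effect of AngII minus sham in log2 units and its 95% interval on the x axis, in blue for the mesenteric arteries and in orange for the aorta. The aortic effects run from -1.57 for Smim6 to 1.34 for Ndufa4l2, and Gm35019 has no mesenteric value because it was not tested in that fit.

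**Figure D3:**
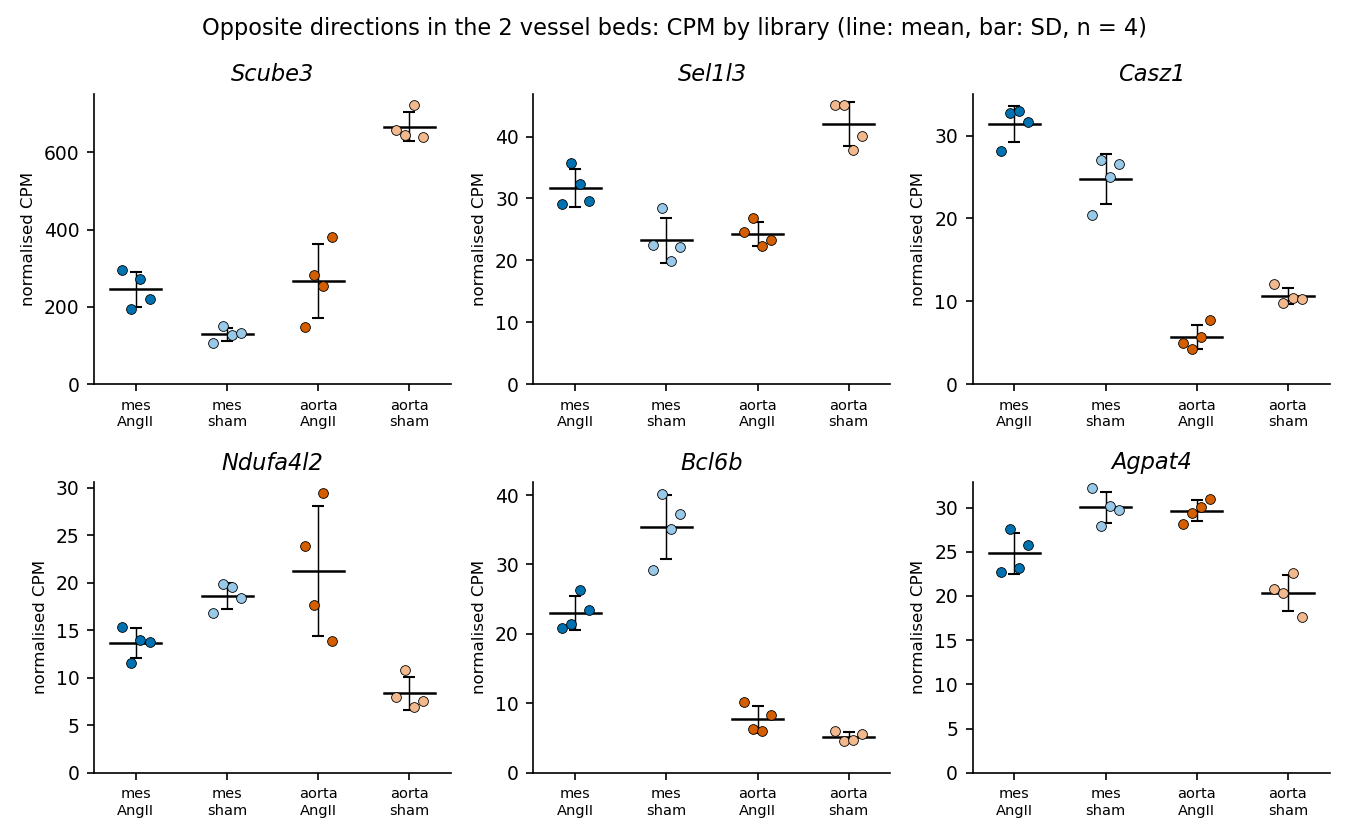
Normalised CPM of 6 of these genes in each of the 16 libraries, with points for libraries, lines for means and bars for SD (n = 4 per group), and with AngII left of sham in each vessel (mes, mesenteric arteries). Scube3, Sel1l3 and Casz1 are higher after AngII in the mesenteric arteries and lower in the aorta, and Ndufa4l2, Bcl6b and Agpat4 run the other way.

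In the mesenteric fit 12 genes were called that were called neither in the aortic fit nor in the interaction, so their difference between vessels was not shown. Sqle, an enzyme of cholesterol synthesis, rose by 0.82 ± 0.11 in the mesenteric arteries, to 31.2 ± 3.43 CPM in AngII against 17.6 ± 1.88 CPM in sham vessels (SD, n = 4 each), and had an aortic effect of 0.05 ± 0.25 (edgeR adjusted p = 0.198 for the interaction). In the cholesterol synthesis list of 19 genes tested, 0 were called in the interaction, 1 rose in the mesenteric arteries (Sqle) and 0 in the aorta. Of the 19, 0 had a negative interaction, and the median interaction was 0.391. The median effect of the list was 0.445 in the mesenteric arteries and 0.0545 in the aorta, beside medians over all genes of 0.00771 and -0.000747. Itga9, an integrin subunit, rose by 0.65 in the mesenteric arteries and had an aortic effect of 0.04. Of all 78 genes called in the mesenteric fit, 65 were called in the aorta too and 75 had an aortic estimate of the same sign.

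Genes called as rising in the aorta only were led by Ttc9, a small protein with tetratricopeptide repeats. Ttc9 stood at 6.79, 9.81, 10.1 and 8.80 CPM in AngII and 9.60, 10.8, 11 and 11 CPM in sham mesenteric arteries. In the aorta it stood at 19.3, 22.8, 13.5 and 26.2 CPM after AngII and 1.60, 1.79, 1.24 and 0.633 CPM after sham. The mesenteric groups overlapped and the aortic groups were far apart (interaction -4.20 ± 0.35, edgeR adjusted p = 3.76e-05; mesenteric effect -0.26 with a 95% interval of -0.57 to 0.04). Psat1, an enzyme of serine synthesis, stood at 22.9, 22.8, 21.9 and 28 CPM in AngII and 25.6, 23.4, 29.4 and 29.7 CPM in sham mesenteric arteries, and at 13, 12.9, 16.1 and 14.1 CPM in AngII and 6.30, 4.49, 5.63 and 4.73 CPM in sham aortas. Psat1 rose by 1.40 ± 0.14 in the aorta and had an interaction of -1.59 ± 0.17 (edgeR adjusted p = 0.000387). It was the only member called in the interaction of 23 tested genes of serine, glycine and proline synthesis and the ATF4 stress response, a list in which 0 members rose and 1 fell in the mesenteric arteries, and 12 of the 22 tested in the aorta rose there.

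Several of the leading genes belong to signalling and the cytoskeleton. Rcan1, a feedback inhibitor of calcineurin that is induced by calcium signals, stood at 52.4, 46.6, 43.5 and 49.1 CPM in AngII and 38.7, 34.0, 38.7 and 37.5 CPM in sham mesenteric arteries, a difference of 0.35 ± 0.07 that was not called (edgeR adjusted p = 0.0971). In the aorta Rcan1 stood at 118, 126, 97.4 and 163 CPM after AngII and 35.5, 43.6, 36.7 and 28.9 CPM after sham, a rise of 1.79 ± 0.17 (interaction -1.44 ± 0.19, edgeR adjusted p = 0.00168). The AngII libraries were the higher ones in both vessels, by a larger step in the aorta. Tpm4, a non-muscle tropomyosin, showed the same order (mesenteric 0.24, aortic 1.14, interaction -0.89 ± 0.12). Megf10, an engulfment receptor (interaction -3.63), Cpxm2, a secreted carboxypeptidase-like protein (-1.48), Rasa4, a calcium-responsive Ras inhibitor (-1.77), Emp1, a tetraspan membrane protein (-1.34), Gal3st1, a sulfatide-making sulfotransferase (-3.14), and Arnt2, a basic helix-loop-helix factor (-2.39), had mesenteric effects between -0.40 and 0.07, none of them called. Each of these 8 genes kept its interaction call in all 29 alternatives.

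Extracellular matrix was the group with the most calls. Of 21 collagen genes tested, 12 were lower and 0 higher in the interaction, beside 1.76% and 1.11% of all genes. All 21 had a negative interaction, with a median of -1.07 beside 0.0111 over all genes. In the tissue fits 1 collagen gene was called as rising in the mesenteric arteries and 18 in the aorta. The median effect of the list was 0.428 in the mesenteric arteries and 1.39 in the aorta, beside 0.00771 and -0.000747 over all genes. The collagens thus leaned upward in both vessels, by a smaller step in the mesenteric arteries. Col1a1, the main fibrillar collagen chain, stood at 1227, 1254, 1228 and 1139 CPM in AngII and 796, 725, 1141 and 668 CPM in sham mesenteric arteries. In the aorta it stood at 15191, 8974, 10979 and 7809 CPM after AngII and 2118, 1960, 2205 and 1668 CPM after sham. The mesenteric effect was 0.53 ± 0.16 (edgeR adjusted p = 0.228), the aortic rise 2.43 ± 0.23, and the interaction -1.89 ± 0.27 (edgeR adjusted p = 0.00214). The aortic AngII library with the highest level, replicate 1, also had the highest fibroblast marker sum and replicate 4 the lowest of both, and the part of that cell type in the result was not tested. Col3a1 (interaction -1.76), Col5a2 (-1.29) and Col16a1 (-1.92) also kept their calls in all 29 alternatives. The count of collagen genes lower in the interaction was 8 without mesenteric AngII replicates 1 and 4 and 10 to 13 with any 1 library left out.

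The same split ran through the genes that assemble and process matrix. Of 26 injury matrix and proteoglycan genes, 7 were lower and 0 higher in the interaction (median -1.11). In the tissue fits 3 were called as rising in the mesenteric arteries against 21 in the aorta, with median effects of 0.455 and 1.7. Cthrc1, a secreted protein of injured arteries, stood at 3.75, 4.97, 4.71 and 4.60 CPM in AngII and 4.90, 4.04, 2.65 and 4.45 CPM in sham mesenteric arteries. In the aorta Cthrc1 stood at 90.8, 28.5, 57.6 and 14.1 CPM after AngII and 1.33, 1.63, 0.714 and 0.670 CPM after sham, so that the aortic groups did not overlap while the mesenteric ones did (interaction -5.28 ± 0.69, edgeR adjusted p = 0.00168). Sparc, a collagen-binding matricellular protein, was 3393 ± 368 CPM in AngII and 2248 ± 211 CPM in sham mesenteric arteries, and 13075 ± 1396 CPM in AngII and 3488 ± 500.0 CPM in sham aortas (SD, n = 4 each; interaction -1.31 ± 0.18, edgeR adjusted p = 0.00168). Of 21 genes of collagen maturation and secretion, 6 were lower in the interaction (1 rose in the mesenteric arteries, 17 in the aorta), among them the prolyl hydroxylase subunit P4ha1 (-0.80) and the procollagen protease Bmp1 (-0.97). Of 19 elastic fibre and crosslinking genes, 5 were lower (1 rose in the mesenteric arteries, 12 of 18 tested in the aorta), including the fibulin Fbln2 (-1.04). Of 27 matrix proteases and inhibitors, 3 were lower (1 rose in the mesenteric arteries, 13 rose and 3 fell in the aorta), including the gelatinase Mmp2 (-2.16 ± 0.49, edgeR adjusted p = 0.0287, called in 15 of 29 alternatives). Of 18 osteochondrogenic regulators, 4 were lower (1 of 16 tested rose in the mesenteric arteries, 10 rose and 1 fell in the aorta), including Runx2, the master factor of bone cells (-1.77 ± 0.37, edgeR adjusted p = 0.0166), and Mgp, an inhibitor of calcification (-0.91, called in 7 of 29 alternatives). None of these 5 lists had a member called higher in the interaction.

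Fbn2, a fibrillin, shows how far single aortas could differ. It stood at 3.31, 7.81, 1.51 and 3.47 CPM in AngII and 4.01, 4.34, 3.24 and 4.56 CPM in sham mesenteric arteries. In the aorta it stood at 25.0, 1.65, 10.6 and 0 CPM after AngII and 0, 0.114, 0 and 0.0372 CPM after sham. The groups overlapped in both vessels, and the call in the interaction (edgeR adjusted p = 0.0434) held in 7 of 29 alternatives.

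The 9 genes called in both vessels in the same direction all rose, and all rose more in the aorta. They were the matrix genes P4ha3, Thbs1, Lox, Col12a1 and Timp1, the osteoprotegerin gene Tnfrsf11b, the TGF-beta co-receptor gene Cd109, the cadherin gene Cdh11 and the cytokinesis gene Racgap1. Thbs1 (thrombospondin 1) stood at 776, 629, 519 and 551 CPM in AngII and 357, 328, 356 and 276 CPM in sham mesenteric arteries. In the aorta Thbs1 stood at 440, 446, 322 and 785 CPM after AngII and 57.9, 59.1, 78.7 and 48.4 CPM after sham. It rose by 0.90 ± 0.14 in the mesenteric arteries and by 3.02 ± 0.28 in the aorta (interaction -2.12 ± 0.32, edgeR adjusted p = 0.00312). P4ha3, a prolyl hydroxylase subunit, rose by 0.88 ± 0.14 in the mesenteric arteries and by 3.92 ± 0.40 in the aorta (interaction -3.04 ± 0.42, edgeR adjusted p = 0.00168). For Col12a1, a fibril-associated collagen, the steps were 1.23 ± 0.11 and 2.56 ± 0.24, and for the crosslinking enzyme Lox 0.74 ± 0.13 and 1.82 ± 0.16. When the labels were permuted within tissues the exact p of the interaction was 0.04 for P4ha3 and 0.0755 to 0.324 for the other 8, a test in which the common rise adds to the spread. Except for Col12a1 and Cdh11, the mesenteric calls of these genes held in 5 or 6 of 17 alternatives.

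Many cell division genes rose in both vessels. Of 30 mitosis genes, 21 rose in the mesenteric arteries (0.431% of all genes did) and 29 in the aorta (11%), with medians of 1.83 and 2.32. In the interaction 1 was lower and 0 higher, but 27 of the 30 had a negative interaction, with a median of -0.403. Mki67, the proliferation marker, stood at 16.3, 17.3, 12.8 and 13.8 CPM in AngII and 3.60, 3.56, 3.33 and 4.26 CPM in sham mesenteric arteries. In the aorta Mki67 stood at 16.4, 14.1, 10.9 and 23.4 CPM after AngII and 4.28, 2.81, 2.85 and 2.53 CPM after sham. The ranges of the 2 vessels overlapped in each condition, and the interaction was -0.34 with a 95% interval of -0.97 to 0.29 (edgeR adjusted p = 0.63). The mesenteric count of 21 fell to between 5 and 15 with any 1 mesenteric library left out and to 0 without AngII replicates 1 and 4, while the list's median stayed at 1.88 in that last fit. The exception was Cenpa, the histone variant of the centromere, with a mesenteric effect of 0.17 and an aortic rise of 1.19 ± 0.17 (interaction -1.02 ± 0.20, edgeR adjusted p = 0.0122). Of 25 DNA replication genes, 1 rose in the mesenteric arteries, 9 rose and 1 fell in the aorta, and 0 were called in the interaction. Of 15 CDK inhibitors and p53 targets, 3 were lower in the interaction (Cdkn1a, -0.85 ± 0.15; Cdkn2c, -0.93; Zmat3, -0.48 and called in 7 of 29 alternatives), with 0 rises in the mesenteric arteries and 9 in the aorta.

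Postn encodes periostin, a matrix protein secreted in wound repair, and rose in both vessels by a like amount. It stood at 2126, 1491, 1872 and 1919 CPM in AngII and 825, 857, 632 and 928 CPM in sham mesenteric arteries, and at 5264, 5506, 5536 and 8521 CPM in AngII and 2964, 2685, 3015 and 2120 CPM in sham aortas. It rose by 1.18 ± 0.15 in the mesenteric arteries and by 1.2 ± 0.19 in the aorta, and the interaction was -0.01 ± 0.25 with a 95% interval of -0.53 to 0.51. This gene was singled out after its values were seen.

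**Figure D4:**
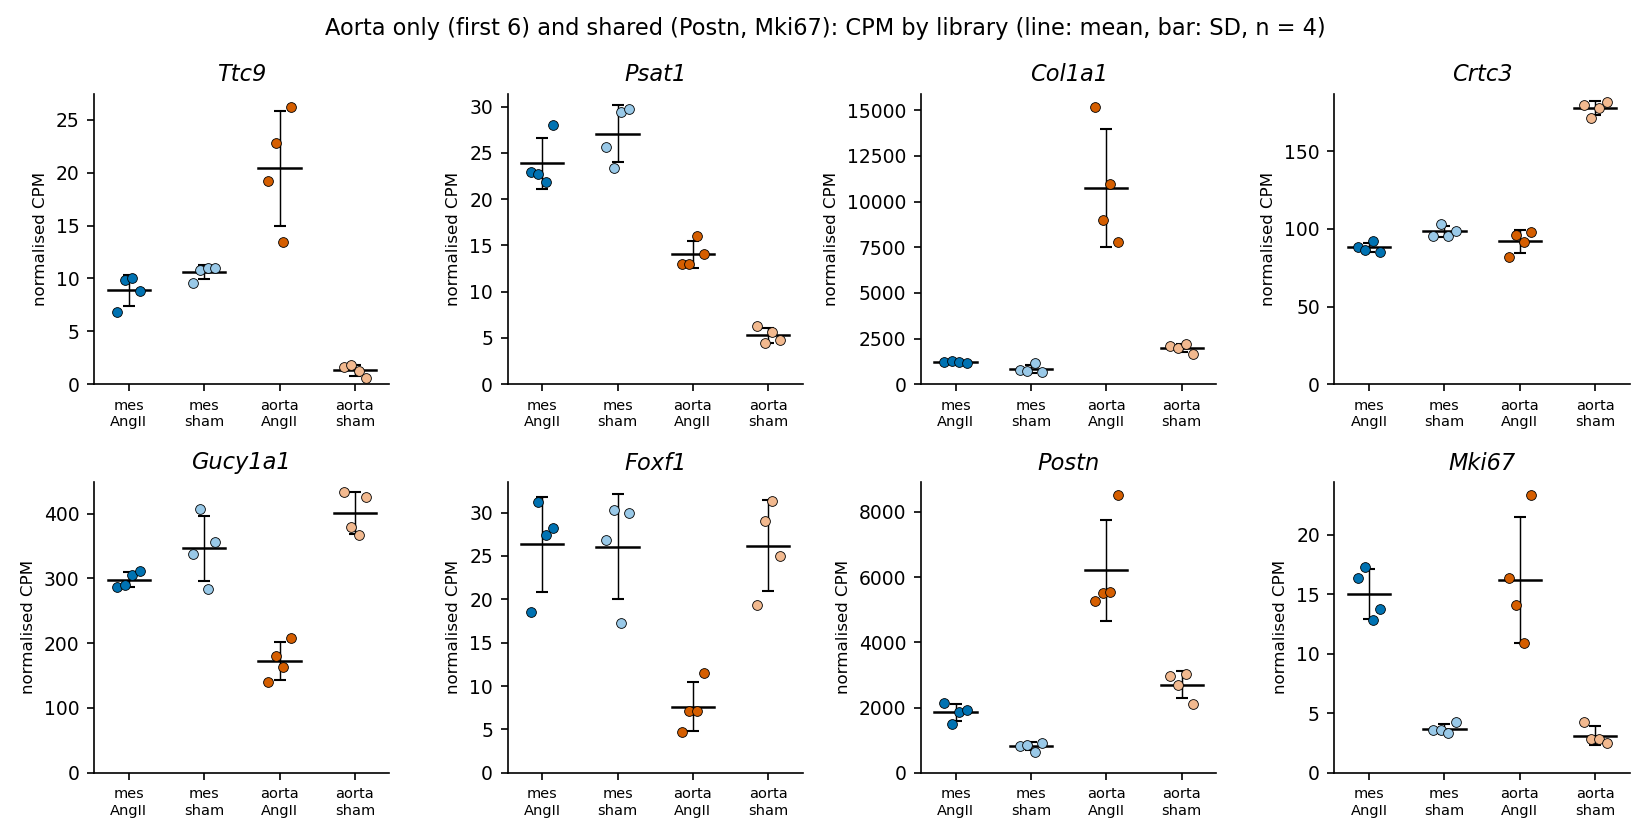
Normalised CPM of 8 genes in each of the 16 libraries, with points for libraries, lines for means and bars for SD (n = 4 per group), and with AngII left of sham in each vessel (mes, mesenteric arteries). Ttc9, Psat1 and Col1a1 were called as rising and Crtc3, Gucy1a1 and Foxf1 as falling in the aortic fit only, while Postn and Mki67 rose in both vessels.

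Genes called as falling in the aorta only were led by Crtc3, a coactivator of the cyclic AMP-responsive factor CREB. It stood at 88.4, 86.7, 92.3 and 85.4 CPM in AngII and 95.8, 103, 95.7 and 98.8 CPM in sham mesenteric arteries, a difference of -0.17 ± 0.05 (edgeR adjusted p = 0.259). In the aorta Crtc3 stood at 81.8, 96.4, 91.8 and 97.8 CPM after AngII and 180, 171, 178 and 182 CPM after sham, a fall of 0.95 ± 0.08 (interaction 0.79 ± 0.09, edgeR adjusted p = 0.000402). The sham aorta stood apart from the other 3 groups. Unc5c, a netrin receptor, averaged 27.9 ± 6 CPM in AngII and 23.4 ± 4.03 CPM in sham mesenteric arteries, and 33.8 ± 2.80 CPM in AngII and 81.9 ± 3.15 CPM in sham aortas (SD, n = 4 each; interaction 1.53 ± 0.20, edgeR adjusted p = 0.00145). Syt15, a synaptotagmin, Pdp2, a phosphatase that activates pyruvate dehydrogenase, Inka2, an inhibitor of the kinase Pak4, and Sntb1, a syntrophin of the dystrophin complex, had interactions of 0.92, 1.30, 1.22 and 0.93. Fryl (0.87), Parm1 (1.15), Napepld, the enzyme that makes N-acylethanolamines (1.03), and Ypel2 (0.85) completed the leading genes. Their mesenteric effects lay between -0.34 and 0.35 and none was called, and each kept its interaction call in all 29 alternatives.

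A few genes of vascular tone were called. Gucy1a1 and Gucy1b1 encode the 2 subunits of the guanylate cyclase through which nitric oxide relaxes smooth muscle. Gucy1a1 stood at 287, 290, 305 and 311 CPM in AngII and 338, 406, 284 and 356 CPM in sham mesenteric arteries. In the aorta Gucy1a1 stood at 140, 180, 163 and 208 CPM after AngII and 433, 379, 367 and 426 CPM after sham, a fall of 1.22 ± 0.13 (interaction 1.00 ± 0.17, edgeR adjusted p = 0.00496). Gucy1b1 had a mesenteric effect of -0.13 and fell by 1.03 ± 0.16 in the aorta (interaction 0.90 ± 0.19, edgeR adjusted p = 0.0184). Ddah1, which breaks down an inhibitor of nitric oxide synthase, went the other way with an interaction of -4.28 ± 0.91 (edgeR adjusted p = 0.0222), at 26.9, 6.61, 28.9 and 5.13 CPM in AngII and 0.784 to 1.27 CPM in sham aortas. Of 16 nitric oxide and cyclic GMP genes these 3 were called in the interaction, 0 were called in the mesenteric arteries, and 1 rose and 3 fell of the 13 tested in the aorta. Over all genes, 2.88% were called in the interaction, and 11% rose and 7.9% fell in the aorta. Without aortic AngII replicate 4 the list had 1 lower and 6 higher genes in the interaction, and without mesenteric AngII replicates 1 and 4 it had 0 and 1.

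Receptors and channels gave few calls. Over all genes, 1.76% were lower and 1.11% higher in the interaction, and 11% rose and 7.9% fell in the aorta. Of 31 vasoactive receptors and peptides, 2 were lower and 1 higher in the interaction, with 0 called in the mesenteric arteries and 4 rises and 6 falls among the 28 tested in the aorta. Ednra, the endothelin receptor of smooth muscle, stood at 40.1, 45.2, 46.6 and 41.2 CPM in AngII and 48.3, 56.5, 46.6 and 48.9 CPM in sham mesenteric arteries. In the aorta Ednra stood at 55.7, 29.1, 36.4 and 22.2 CPM after AngII and 12.8, 12.2, 13.6 and 12.4 CPM after sham (interaction -1.70 ± 0.27, edgeR adjusted p = 0.00434). The prostaglandin synthase Ptgs2 was lower too (-1.79, called in 13 of 29 alternatives), and the alpha-2A adrenergic receptor gene Adra2a was higher (1.51), since it fell by 2.04 ± 0.20 in the aorta. Of 34 ion channel and calcium handling genes, 2 were lower and 1 higher, with 0 called in the mesenteric arteries and 3 rises and 11 falls among the 32 tested in the aorta. The mechanosensitive channel genes Piezo1 and Piezo2 rose by 0.77 ± 0.10 and 2.20 ± 0.27 in the aorta and had mesenteric effects of 0.04 and 0.40 that were not called (interactions -0.72 and -1.79). The potassium channel gene Kcnq5 fell by 0.99 ± 0.14 in the aorta (interaction 1.19 ± 0.25). Of 18 contractile smooth muscle genes, Pcp4l1 was the 1 called (0.97 ± 0.21, edgeR adjusted p = 0.0206), with 0 called in the mesenteric arteries and 3 falls in the aorta, and all 18 had a positive interaction with a median of 0.506. Beside these falls, the smooth muscle marker sum ranged lower in AngII than in sham aortas, as given above, and its part in the falls was not tested.

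Lists around AngII signalling held 1 or 2 calls each in the interaction. Of 12 renin-angiotensin genes, Ace, the enzyme that makes AngII, was lower in the interaction (-0.82 ± 0.17, edgeR adjusted p = 0.0188), at 290, 305, 428 and 372 CPM in AngII and 364, 390, 345 and 371 CPM in sham mesenteric arteries and 1069, 983, 844 and 975 CPM in AngII and 592, 628, 608 and 488 CPM in sham aortas. Lnpep was higher, as given above. In the tissue fits 0 of these genes were called in the mesenteric arteries, and 2 rose and 1 fell of the 10 tested in the aorta, beside 11% and 7.9% of all genes. Of 17 calcineurin and RGS feedback genes only Rcan1 was called in the interaction, with 0 called in the mesenteric arteries and 3 rises and 2 falls among the 16 tested in the aorta. Of 24 immediate early and stress genes, 2 were lower in the interaction (Junb, -1.18 ± 0.21; Klf2, -1.33 ± 0.30), 0 were called in the mesenteric arteries and 8 rose in the aorta, and 23 had a negative interaction with a median of -0.969. Junb, a subunit of the transcription factor AP-1, stood at 61.4, 67.9, 53.6 and 50.3 CPM in AngII and 52.0, 47.8, 61.8 and 53.0 CPM in sham mesenteric arteries, and at 36.3, 54.8, 45.5 and 46.8 CPM in AngII and 21.4, 22.5, 15.7 and 15 CPM in sham aortas.

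Growth factor and guidance lists held 0 to 2 calls each in the interaction, in which 1.76% of all genes were lower and 1.11% higher. In the aorta 11% of all genes rose and 7.9% fell. Of 24 growth factors, 2 were lower in the interaction, with 0 rises in the mesenteric arteries and 11 among the 22 tested in the aorta. Ptn, the growth factor pleiotrophin, had an interaction of -1.86 ± 0.41 (edgeR adjusted p = 0.0235), with a mesenteric effect of -0.23 that was not called and an aortic rise of 1.63 ± 0.40. Of 26 TGF-beta and BMP genes, 2 were lower, the activin antagonist Fst (-2.58 ± 0.49, edgeR adjusted p = 0.0137) and Ltbp3 (-0.51, called in 13 of 29 alternatives), with 1 rise in the mesenteric arteries and 6 among the 25 tested in the aorta. Of 23 Wnt genes, the antagonist Sfrp2 was lower (-1.21), with 0 called among the 22 tested in the mesenteric arteries and 6 rises and 1 fall among the 21 tested in the aorta. Of 21 axon guidance genes, Slit2 was lower (-1.38, called in 11 of 29 alternatives) and Unc5c higher, with 0 called in the mesenteric arteries and 7 rises and 1 fall among the 19 tested in the aorta. Of 14 Notch genes 0 were called in the interaction or in the mesenteric arteries, and 2 fell in the aorta.

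Sphk1, the gene flanked by loxP sites in all these mice, makes the lipid signal sphingosine-1-phosphate. It stood at 14.3, 17.4, 13.1 and 9.59 CPM in AngII and 9.12, 7.17, 8.94 and 7.77 CPM in sham mesenteric arteries, and at 25.2, 23.9, 16.7 and 12.2 CPM in AngII and 4.46, 5.25, 6.27 and 3.17 CPM in sham aortas. The AngII libraries were above the sham libraries in both vessels. The interaction of -1.30 ± 0.34 missed the threshold (edgeR adjusted p = 0.0521; 10 of 29 alternatives called it). Of 18 genes of this pathway, 2 were lower in the interaction, with 0 called in the mesenteric arteries and 7 rises among the 17 tested in the aorta. Over all genes, 1.76% were lower in the interaction and 11% rose in the aorta. The receptor gene S1pr3 stood at 432, 323, 503 and 378 CPM in AngII and 384, 467, 486 and 332 CPM in sham mesenteric arteries, and at 4.28, 4.30, 6.03 and 5.91 CPM in AngII and 2.99, 2.17, 1.73 and 2.16 CPM in sham aortas (interaction -1.20 ± 0.26, edgeR adjusted p = 0.0197). Its aortic rise of 1.17 ± 0.22 thus took place at a level far below the mesenteric one. The exporter gene Spns2 had an interaction of -1.27 ± 0.30 (edgeR adjusted p = 0.0348).

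Immune and stress lists gave 1 or 2 calls each or none in the interaction, in which 1.76% of all genes were lower and 1.11% higher. In the aorta 11% of all genes rose and 7.9% fell. Of 26 chemokines and cytokines, Cxcl16 (-1.09, called in 13 of 29 alternatives) and Cx3cl1 (-0.85) were lower in the interaction, with 0 rises among the 25 tested in the mesenteric arteries and 8 among the 24 tested in the aorta. Of 27 antigen presentation and complement genes, the complement protease gene C1s1 was lower (-0.89), with 0 called in the mesenteric arteries and 11 rises and 1 fall in the aorta. Of 20 oxidase and antioxidant genes, Gpx7 was lower (-0.97) and Noxo1, the organiser of the Nox1 oxidase, higher (1.41 ± 0.31, edgeR adjusted p = 0.0211), with 0 called in the mesenteric arteries and 7 rises and 1 fall in the aorta. Interferon-stimulated genes (24), ER chaperones (20), clock genes (19) and oxidative phosphorylation genes (25) had 0 calls in the interaction. In that order, 22, 19, 7 and 1 of them had a negative interaction, with medians of -0.481, -0.287, 0.105 and 0.135. Of these 4 lists only the clock genes had a call in the mesenteric arteries (1 rise). In the aorta 1 interferon-stimulated gene and 9 ER chaperones rose, and 1 clock gene rose and 4 fell.

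**Figure D5:**
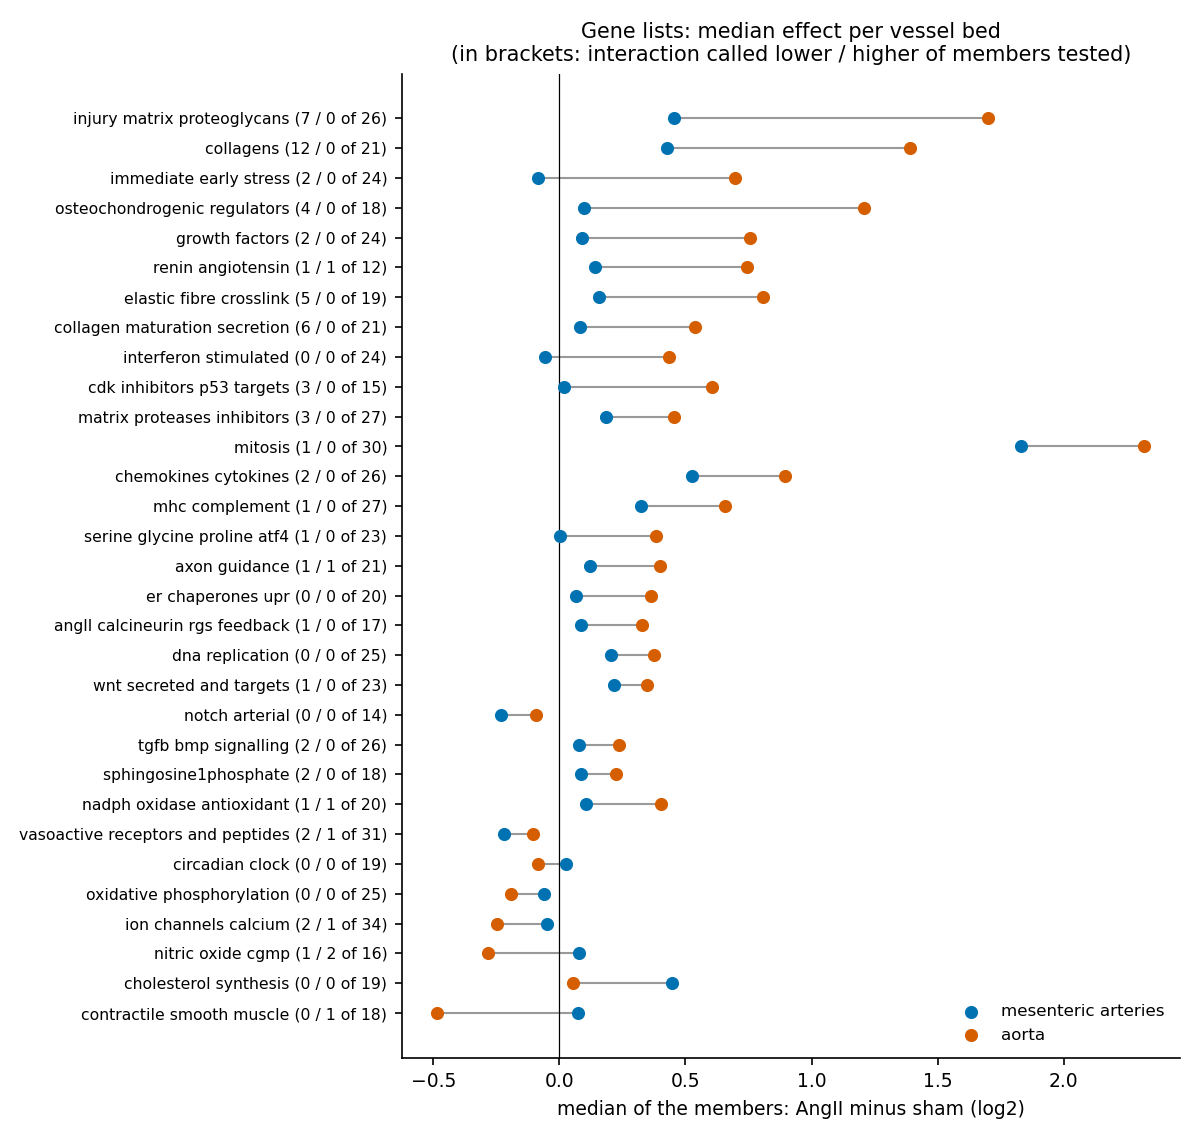
Each row is one of the 31 gene lists other than cell type markers, with the median over its members of the effect of AngII minus sham (log2 units) in blue for the mesenteric arteries and in orange for the aorta, and with the members called lower or higher in the interaction in brackets. Among these 31 the longest gap is that of the injury matrix list, at 0.455 in the mesenteric arteries and 1.7 in the aorta, and the mitosis list is at 1.83 in the mesenteric arteries and 2.32 in the aorta.

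Among 13 lists of cell type markers, 3 had a member called in the interaction. Ccr2, the monocyte chemokine receptor, was lower (-2.36 ± 0.56, edgeR adjusted p = 0.0387), as were the fibroblast marker Col14a1 (-1.06) and the Schwann cell marker S100b (-1.58), in 14, 11 and 12 of 29 alternatives. Macrophage and monocyte markers (12) rose in 0 cases in the mesenteric arteries and in 10 of the 11 tested in the aorta, with medians of 0.859 and 0.668. Their summed level was 284 to 705 CPM in AngII and 206 to 390 CPM in sham mesenteric arteries, and 738 to 982 CPM in AngII and 536 to 663 CPM in sham aortas, ranges that overlapped in the mesenteric arteries and not in the aorta. Fibroblast markers (12) rose in 0 cases in the mesenteric arteries and in 4 in the aorta, with sums of 4920 to 7910 CPM in AngII and 5070 to 9510 CPM in sham mesenteric arteries. Lymphatic endothelial markers (7) rose in 0 and 4 cases, and their sum was 420 to 585 CPM in AngII and 306 to 645 CPM in sham mesenteric arteries and 103 to 133 CPM in AngII and 58.9 to 95.6 CPM in sham aortas. Endothelial marker sums were 3170 to 3800 CPM in AngII and 4080 to 4390 CPM in sham mesenteric arteries and 781 to 1180 CPM in AngII and 1080 to 1220 CPM in sham aortas. The part of these cell types in the results above was not tested.

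The genes with a vessel difference also differed in where they started. Among the 312 genes with a lower mesenteric effect, 227 (72.8%) had a higher mean level in sham mesenteric arteries than in sham aortas, and among the 197 with a higher mesenteric effect 54 (27.4%) did, beside 49.9% of all genes tested. The sham libraries enter both the starting level and the effect, so these shares are a description and not a separate result. The gap between the vessels was smaller after AngII than after sham for 283 of the 509 genes (55.6%, beside 50.8% of all genes). Its median size over the 509 was 0.788 after AngII and 0.917 after sham, in log2 units.

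Pairs of neighbouring transcripts moved together in the aorta, and these were picked after their values were seen. Foxf1, a forkhead factor of the mesenchyme, averaged 26.3 ± 5.49 CPM in AngII and 26.1 ± 6.07 CPM in sham mesenteric arteries, and 7.61 ± 2.84 CPM in AngII and 26.2 ± 5.27 CPM in sham aortas (SD, n = 4 each; interaction 1.80 ± 0.35, edgeR adjusted p = 0.0147). The long noncoding RNA Fendrr, transcribed next to Foxf1 in the opposite direction, averaged 14.0 ± 6.57 CPM in AngII and 13.7 ± 2.13 CPM in sham mesenteric arteries, and 0.413 ± 0.251 CPM in AngII and 2.36 ± 0.522 CPM in sham aortas (interaction 2.54 ± 0.51, edgeR adjusted p = 0.0152). Meg3 and Rian, noncoding RNAs of 1 imprinted cluster, had interactions of -1.36 ± 0.28 and -1.19 ± 0.25 (edgeR adjusted p = 0.0161 and 0.0192) and rose by 1.47 and 1.41 in the aorta. The sources used here do not state the strand setting of the counting, so reads of overlapping transcripts cannot be told apart.

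Promoter windows were searched for 6 short motifs. The windows run from 250 bases before to 50 bases after a transcript start in a RefSeq table on the mouse build GRCm38.p6. They matched by symbol 227 of the 312 genes with a lower and 133 of the 197 with a higher mesenteric effect, and 12161 of 17682 symbols tested. The AP-1 motif TGANTCA, on either strand, was in 10.6% of 273 windows of the lower genes and 2.81% of 178 windows of the higher genes, beside 5.52% of the windows of all genes tested and 7.81% of the table. Fewer than 80% of each set had a window, so this comparison of shares, and those of the other motifs, is void and is given as a description. In the windows of the lower genes, the higher genes, all genes tested and the table, the ATF4 site TGATGNAA was in 1.1%, 5.06%, 2.42% and 3.97%. The E-box CACGTG was in 6.96%, 10.7%, 9.2% and 7.15%, and the CHR element TTTGAA in 13.2%, 15.2%, 12.7% and 17.9%. The MCAT element CATTCC was in 13.2%, 14%, 12.7% and 14.7%, and the D-box TTATGNAA in 2.2%, 1.69%, 2.12% and 3.38%. A match is a run of letters and not a binding site. The windows below are of 5 genes whose rise was called in the aortic fit only and that hold the AP-1 motif, shown in capitals. Of these, Agpat4 also moved in opposite directions by the order of its libraries, and Rcan1 was higher after AngII in both vessels. The last window is of Scube3, which was called in both vessels in opposite directions and holds none of the 6 motifs in its window. They are written 5′ to 3′ on the strand of the gene.
Emp1, chr6:135362681-135362980, plus strand: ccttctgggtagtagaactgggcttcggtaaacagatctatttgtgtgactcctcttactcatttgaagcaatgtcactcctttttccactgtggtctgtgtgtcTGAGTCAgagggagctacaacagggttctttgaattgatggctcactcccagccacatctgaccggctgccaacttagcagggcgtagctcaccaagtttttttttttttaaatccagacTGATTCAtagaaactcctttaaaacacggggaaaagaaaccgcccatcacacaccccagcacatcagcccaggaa
Rcan1, chr16:92400029-92400328, minus strand: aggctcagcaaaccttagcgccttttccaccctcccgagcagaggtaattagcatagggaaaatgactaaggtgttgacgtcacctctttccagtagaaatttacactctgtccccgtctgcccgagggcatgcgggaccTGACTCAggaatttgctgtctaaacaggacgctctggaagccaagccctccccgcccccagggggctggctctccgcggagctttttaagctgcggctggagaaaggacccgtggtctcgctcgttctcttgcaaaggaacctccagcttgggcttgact
Tpbg, chr9:85842130-85842429, plus strand: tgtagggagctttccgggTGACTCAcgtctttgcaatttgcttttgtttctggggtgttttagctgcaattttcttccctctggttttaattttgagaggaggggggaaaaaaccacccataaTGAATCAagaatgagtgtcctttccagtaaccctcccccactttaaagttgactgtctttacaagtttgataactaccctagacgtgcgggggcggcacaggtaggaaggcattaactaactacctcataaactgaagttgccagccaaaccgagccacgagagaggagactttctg
Agpat4, chr17:12119034-12119333, plus strand: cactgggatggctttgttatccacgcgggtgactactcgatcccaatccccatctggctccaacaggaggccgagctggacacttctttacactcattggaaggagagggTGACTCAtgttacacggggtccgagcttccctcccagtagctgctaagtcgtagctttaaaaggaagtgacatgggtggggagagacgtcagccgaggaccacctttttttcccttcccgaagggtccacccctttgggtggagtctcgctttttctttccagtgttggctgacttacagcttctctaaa
Capn6, chrX:143827363-143827662, minus strand: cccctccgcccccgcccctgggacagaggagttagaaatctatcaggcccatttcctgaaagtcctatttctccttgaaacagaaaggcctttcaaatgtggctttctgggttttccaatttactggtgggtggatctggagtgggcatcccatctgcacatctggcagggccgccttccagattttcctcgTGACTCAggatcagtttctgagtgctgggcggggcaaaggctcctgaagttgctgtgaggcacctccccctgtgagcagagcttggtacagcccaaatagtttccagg
Scube3, chr17:28142059-28142358, plus strand: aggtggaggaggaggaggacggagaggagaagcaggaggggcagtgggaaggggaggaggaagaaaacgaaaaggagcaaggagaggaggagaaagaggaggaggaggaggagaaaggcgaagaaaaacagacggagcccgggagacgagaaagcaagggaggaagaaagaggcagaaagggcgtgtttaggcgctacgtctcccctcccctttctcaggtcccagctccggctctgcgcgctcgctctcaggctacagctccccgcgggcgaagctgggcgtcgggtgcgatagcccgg

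Counted from the transcript start, the first AP-1 match begins at -145 in Emp1, -110 in Rcan1, -232 in Tpbg, -140 in Agpat4 and -58 in Capn6, and Emp1 and Tpbg hold 2 matches each. Emp1, Rcan1 and Tpbg each have another window in the table, not shown, that holds no AP-1 match. The windows shown were picked for the motif. The CHR element also matched in the windows shown, 2 times in Emp1 and 1 time in Capn6. Tpbg, an oncofetal membrane protein, averaged 3.57 ± 0.398 CPM in AngII and 3.73 ± 0.356 CPM in sham mesenteric arteries, and 6.30 ± 0.655 CPM in AngII and 2.37 ± 0.405 CPM in sham aortas (SD, n = 4 each; interaction -1.47 ± 0.22, edgeR adjusted p = 0.00249). Capn6, a calpain without protease activity, averaged 6.22 ± 1.5 CPM in AngII and 6.54 ± 0.81 CPM in sham mesenteric arteries, and 23.4 ± 9.30 CPM in AngII and 5.09 ± 1.23 CPM in sham aortas (interaction -2.27 ± 0.35, edgeR adjusted p = 0.00322). Tpbg and Capn6 were chosen for their windows after their values were seen.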

How the data were processed

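RNA-seq libraries of mouse mesenteric arteries and aorta were sequenced from poly(A) RNA, per the labels' protocols. The deposited values are raw read counts per gene and library. The submitters' processing notes name cutadapt, HISAT2, HTSeq and the genome build GRCm39, and versions and the strand setting are not given in the sources used here. Lines that name no gene were left out of library sizes (no feature 7.147 to 10.95%, ambiguous 1.198 to 1.581%, low quality 1.96 to 3.346%, not aligned 0.5717 to 12.02%, not unique 4.816 to 12.99% of records).

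Here, the counts of the 16 libraries were filtered with filterByExpr, scaled by TMM and fitted in edgeR 4.0.16 (R 4.3.3) with robust quasi-likelihood. The interaction was tested over 17687 genes, and each tissue was fitted alone for its own effect. Calls use a Benjamini-Hochberg adjusted p below 0.05. CPM are TMM-scaled. DESeq2 1.42.0 and limma 3.58.1 (voom with quality weights) were alternatives, beside other filters, scalings, covariates, a replicate block and each library left out.

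Named genes are Sphk1, the 12 genes with the smallest adjusted p in each direction (mean log2 CPM of at least 1, proper name), up to 8 per response class and direction and up to 4 called genes per list. Genes named outside this rule, and the motif windows, were chosen after their values were seen. The members and the 44 gene lists were chosen with earlier results of these data known. The 10 knockout libraries of the series enter no comparison here other than 1 alternative. Same-numbered mesenteric and aortic libraries of a treatment deviated together weakly (correlations of -0.0459 to 0.146), beside -0.151 to 0.13 for different numbers. The labels do not say whether a number marks an animal, so the numbers were not used to pair libraries in the main fit. With same-numbered libraries of a treatment taken as 1 animal, 218 genes were lower and 143 higher in the interaction. That fit kept 294 of the 509 calls. Of 825 list symbols, 824 matched the tables. Some results are not reported here.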

Additional observations from a re-analysis of the deposited data

Results flagged for a closer look

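The effect of AngII differed between the vessel beds by the interaction test for 312 genes that were lower and 197 that were higher in the mesenteric arteries, and 27 of them moved in opposite directions without overlap of libraries. The count of 27 was not shown to exceed what independent movement of the vessels would give.

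Of 444 groups of 4 libraries examined for the genes named, 26 held 1 library far from the other 3 by Dixon's test, and chance flags about 1 in 20 groups. In AngII mesenteric arteries these were Lnpep at 210 CPM, P4ha1 at 129, S100b at 21.7 and Tvp23a at 6.29 in replicate 1, Col3a1 at 3280 and Smim6 at 3.4 in replicate 2, Cpxm2 at 174 in replicate 3, and Psat1 at 28, Racgap1 at 6.03 and Tpbg at 4.16 in replicate 4. In sham mesenteric arteries they were Arnt2 at 5.76, Gm35019 at 0.0343 and Ttc9 at 9.6 CPM in replicate 1, Col16a1 at 242, Col28a1 at 88.1 and Slc44a1 at 148 in replicate 3, and Sfrp2 at 4.82 in replicate 4. In AngII aortas they were Capn6 at 37.2 and Cdh11 at 180 CPM in replicate 1, Parm1 at 40.4 in replicate 2, and Postn at 8520, Racgap1 at 12.2 and Spns2 at 15.3 in replicate 4. In sham aortas they were Gm35019 at 1.01 CPM in replicate 3, and Bmp1 at 189 and Cdkn1a at 34 in replicate 4.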

How the results depend on the processing

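No gene called in the interaction changed sign in any of the 29 alternatives run, but the counts of calls moved. Genes lower and higher in the mesenteric arteries, 312 and 197, became 639 and 440 with DESeq2 (which kept 504 of the 509), 629 and 562 with limma voom (467 kept), 118 and 82 without mesenteric AngII replicates 1 and 4 (174 kept), 198 and 217 with library size alone, and 308 and 126 with all 26 libraries. With the mean log2 CPM of the gut and pancreas markers, centred within each tissue, as a covariate they were 305 and 191. The same covariate made from the lymphocyte markers gave 315 and 189. Under the replicate block, which matches AngII and sham libraries by a number whose meaning the labels do not give, the lower and higher counts were 239 and 155. They ranged from 193 to 522 and from 102 to 390 with 1 library left out, highest without aortic AngII replicate 4. Mesenteric rises, 72, became 381 with DESeq2, 145 with limma voom, 43 with library size alone, 32 with all 3 groups of the tissue, and 0 with the replicate block or without AngII replicates 1 and 4, and ranged from 6 to 47 with 1 library left out. Mesenteric falls, 6, became 129, 16, 11 (no filter), 10 (stricter filter), and 0 with all 3 groups, the replicate block or those 2 libraries left out, and ranged from 0 to 1. Aortic rises, 1784, became 2772 with limma voom and ranged from 1200 to 2132 with 1 library left out. Aortic falls, 1281, became 2760 with library size alone, 2341 with limma voom and 839 with the replicate block, and ranged from 773 to 1529. The cause of these moves was not tested. Library size alone moved the median interaction over all genes to 0.0678, beside 0.0111.

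The aorta-only class of 465 genes became 871 with DESeq2 and 1033 with limma voom, and ranged from 288 to 790 with 1 library left out. The mesenteric-only class of 1 became 23 with DESeq2, 6 with limma voom, 5 with tissue effects from the 16-library fit and 2 at a tissue threshold of 0.1, and ranged from 0 to 3. The class with calls in the same direction, 9, became 50 with DESeq2, 26 with limma voom and 18 at the threshold of 0.1, and ranged from 1 to 11. The class of opposite calls, 1, became 9 with DESeq2, 2 at the threshold of 0.1 and 0 with the 16-library fit, and ranged from 0 to 2.

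Among the genes of the text that were followed across the alternatives, calls in the interaction were least stable for Fbn2, Mgp, Scara3 and Zmat3 (7 of 29 alternatives) and Racgap1 (9). Ints11, Smim6, Slit2 and Col14a1 were called in 11, S100b in 12, Ltbp3, P2rx5, Cxcl16 and Ptgs2 in 13, Ccr2 in 14, Mmp2 in 15, Mipol1 and Spns2 in 16, Ppp1r3b and Sfrp2 in 17, and Adra2a, Cdkn2c and Lnpep in 18. The 95% interval of the interaction lay within a 2-fold difference either way for 59.7% of genes, so a vessel difference of that size could not be bounded for the others.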
